A study of Mus musculus with 3 samples.

Results

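The coagulation and fibrinolysis genes described here are 32 genes of blood clotting and clot removal, chosen by symbol: F2, F3, F5, F7, F8, F9, F10, F11, F12, F13a1, F13b, Fga, Fgb, Fgg, Vwf, Thbd, Procr, Proc, Pros1, Serpinc1, Serpind1, Serpinf2, Tfpi, Plg, Plat, Plau, Plaur, Klkb1, Kng1, F2r, F2rl1 and Cpb2. All 32 were found among the 31053 genes of the count matrices, and each had at least 1 UMI (unique molecular identifier, the tag that counts 1 captured transcript) in all 3 libraries. The libraries are droplet-based single-cell libraries, read from the 3' end of transcripts, of the non-parenchymal cells of livers that were perfused and then dissociated, taken from female mice of the BALB/c strain. The control came from PBS-injected mice labelled 8 weeks of age. The other libraries came from mice injected orthotopically with 4T1 cells, a mouse mammary carcinoma line, and collected after 4 days (age label 8 weeks) or 21 days (age label 11 weeks). The study is about how tumours outside the liver affect liver inflammation and the hepatocyte transcription factor HNF4A. The labels do not give the number of mice behind a library or the day on which the control was collected. Each group is 1 library, so a replicate check is missing: no test between groups was made, and every interval below covers counting error only.

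Clotting runs as a cascade of plasma proteases. Tissue factor and factor VII, or the contact factors XI and XII with prekallikrein and kininogen, lead through factors IX, VIII, X and V to thrombin, which turns fibrinogen into fibrin that factor XIII cross-links. Antithrombin, heparin cofactor, tissue factor pathway inhibitor and the thrombomodulin, protein C and protein S system restrain the cascade, and plasmin, made from plasminogen by its activators, dissolves the clot. Hepatocytes secrete most of these plasma proteins, whereas factor VIII, von Willebrand factor and thrombomodulin are known as endothelial products.

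The libraries held 27191082 (control), 34833820 (day 4) and 51913215 UMIs (day 21). The 32 genes took 48887, 59048 and 37413 of them. Barcodes with more than 20% mitochondrial UMIs made up 23.8, 32.0 and 10.7% of the deposited barcodes, and after this filter and the removal of called doublets 4694, 5410 and 9938 cells were kept. Median depth of the barcodes that passed the filter, with called doublets still included, was 4218, 4462 and 3144 UMIs. Cells were clustered without the 32 genes and without 38 further genes of haemostasis, so that their levels did not shape a cluster. Marker and reference genes of the cell types stayed eligible. Of the cell barcodes, 13 were shared by control and day 4, 22 by control and day 21, and 32 by day 4 and day 21. The labelled fraction should hold few hepatocytes, yet a group carrying 12 of 12 hepatocyte markers was present with 83, 215 and 196 cells. It is called the hepatocyte-marker group because its largest cluster was too shallow to be named by the naming rule. All 15 endothelial, 13 Kupffer and 13 stellate markers were held by at least 10% of the cells of the class so named in each library. Levels are given in CPM, the UMIs of a gene scaled by all UMIs of 1 class in 1 library. Levels of different genes are not ranked against each other.

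The cell class with the highest level divided the genes into a hepatocyte set and smaller vascular and cellular sets. In the control, 19 of 32 genes were highest in the hepatocyte-marker group, 7 (F8, Vwf, Thbd, Procr, Pros1, Tfpi and F2r) in Endothelial-like cells and F3 and Plat in Stellate-like cells. Plaur was highest in Neutrophil-like cells, F2rl1 in T-like cells and Plau in an unnamed cluster with endothelial markers (cluster 1). F13a1 had 1 UMI in classes of 50 or more control cells. At day 4 the same 19 and the same 7 genes were highest in those classes. At day 21 the count for the hepatocyte-marker group was 18 of 31 genes, without F11, which had under 20 UMIs in kept cells. Tfpi was then highest in cluster 14, an unnamed cluster with 15 endothelial and 9 stellate markers, at 257 CPM (203 to 321). Endothelial-like cells were next at 244 CPM, and the intervals overlapped. Outside the hepatocyte set, the control intervals of Vwf, Procr, F3, Plat and Plau also overlapped those of the next class. At day 4 those of Vwf, Procr, Pros1 and Tfpi did.

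Level in the hepatocyte-marker group exceeded the next class by 4.13-fold (F5) to 31.5-fold (Fga) in the control, with a median of 16.2-fold over the 19 genes, and the intervals of the highest and the next class were separate for 17 of them. The exceptions were F7 and F9, for which Neutrophil-like cells came next at 13.2 CPM (upper bound 73.8). The 19 genes were chosen as highest in this group in the control, so a control level above the next class is given by that choice. The share of all genes with separate intervals was not counted. At day 4 the median was 22.3-fold and the intervals of all 19 were separate. At day 21 the median was 27.5-fold, and the range ran from 1.04-fold for F10, whose level in Monocyte/macrophage-like cells overlapped that of the hepatocyte-marker group, to 78.1-fold for Cpb2. F5 had the smallest distance to the next class in the control and at day 4 (1.81-fold).

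**Figure D1:**
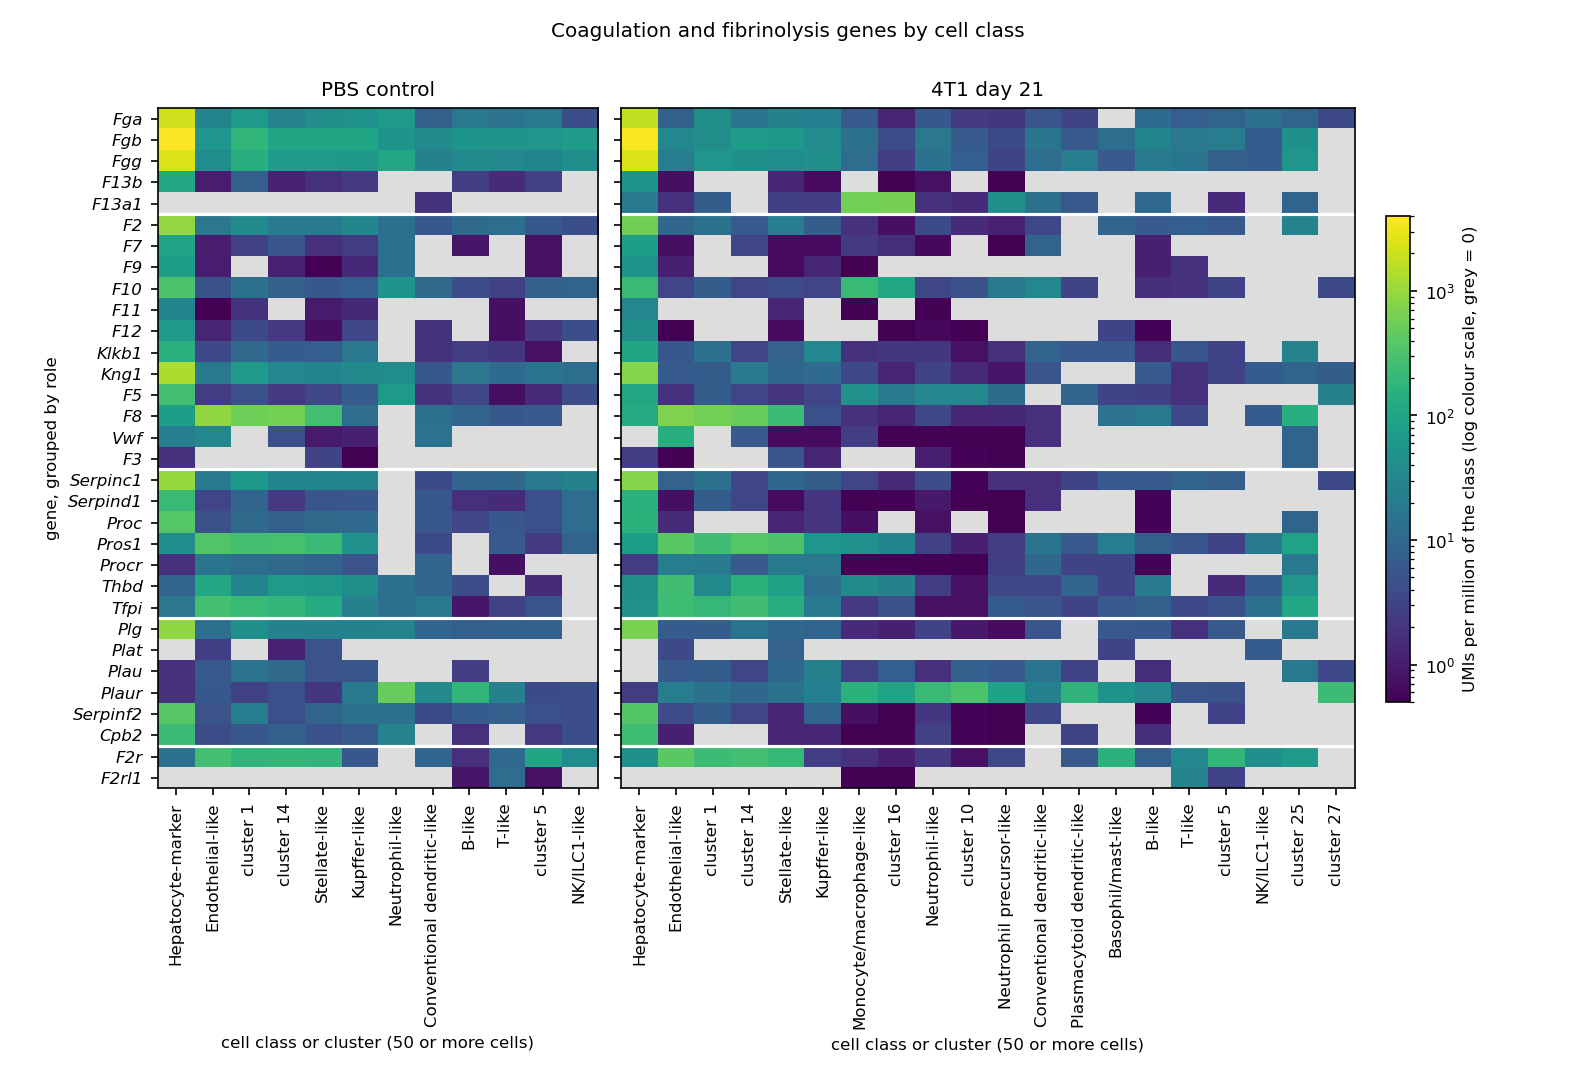
Level of each of the 32 genes (y axis, grouped by role, white lines between roles) in each cell class or cluster with 50 or more cells (x axis), for the control (left) and day 21 (right). Colour is CPM on a log scale and grey is 0 UMIs. The column of the hepatocyte-marker group is bright for the 19 plasma factors, F8 is bright in Endothelial-like cells and in clusters 1 and 14, and F13a1, grey in almost all control classes, is at 584 CPM in Monocyte/macrophage-like cells and 624 CPM in cluster 16 at day 21.

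Low levels of the hepatocyte set were read in every large class. Fgb was at 103, 84.9 and 38.6 CPM in Kupffer-like cells and at 56.8, 42.4 and 33.2 CPM in Endothelial-like cells (control, day 4, day 21). Alb, the albumin gene, was found in 96.6, 92.6 and 41.0% of Kupffer-like cells and in 87.1, 80.7 and 30.9% of Endothelial-like cells in the same order, so hepatocyte transcripts were read outside the hepatocyte-marker group in each library, and in a smaller share of cells at day 21. The 12 hepatocyte markers were all detected in Kupffer-like cells, with a summed level of 1791, 1299 and 474 CPM. For this reason a gene was compared between libraries in a class only where its level there was at least 0.25 of that in the class where it was highest, with 20 or more UMIs over both libraries and 50 or more cells in each. The 0.25 limit was read in the library where the gene was higher in the class, so a pair could enter through that library alone. These rules left 44 gene and class pairs in each comparison, over 31 genes and 7 classes. F13a1 is the gene left out.

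Fibrinogen is a hexamer of paired alpha, beta and gamma chains, encoded by Fga, Fgb and Fgg. The genes lie side by side within 42.1 kb of chromosome 3 (chr3:83007724-83049863, GRCm38), Fgg and Fga on the plus strand and Fgb on the minus strand. In summed CPM these genes shared 1 pattern across the libraries. The 250 bases before the annotated start of the outer ones, Fgg (chr3:83007474-83007723, plus strand) and Fgb (chr3:83049864-83050113, minus strand), are shown from RefSeq, GRCm38.p6. Capitals mark CTGGGAA, a core of interleukin 6 response elements, and, in Fgb, ATTAAC, the reverse complement of the hepatocyte nuclear factor 1 core GTTAAT.

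Fgg: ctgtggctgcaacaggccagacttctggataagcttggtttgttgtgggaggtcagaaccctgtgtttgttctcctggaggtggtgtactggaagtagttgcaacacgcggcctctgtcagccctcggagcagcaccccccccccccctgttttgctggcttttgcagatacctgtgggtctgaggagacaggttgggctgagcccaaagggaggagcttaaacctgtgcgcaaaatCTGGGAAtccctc
Fgb: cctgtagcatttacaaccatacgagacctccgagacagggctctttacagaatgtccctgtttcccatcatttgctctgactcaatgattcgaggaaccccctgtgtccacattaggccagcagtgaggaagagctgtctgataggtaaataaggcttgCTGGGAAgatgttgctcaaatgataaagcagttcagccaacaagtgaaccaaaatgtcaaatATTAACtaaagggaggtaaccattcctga

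CTGGGAA lay 13 bases before the start of Fgg and 91 before that of Fgb, and the reversed GTTAAT 29 bases before the start of Fgb. Searched on both strands, CTGGGAA was in 9.10% of 32851 mouse promoter windows of the same length and in 4 of the 26 windows of the 24 genes that matched the table (F9, Fgb, Fgg and Tfpi). GTTAAT was in 6.43% of all windows and in 3 of the 26 (F13b, Fga and Fgb). CAAAGTCCA, a hepatocyte nuclear factor 4 site, was in 0.384% of all windows and in 0 of the 26. A match describes letters in a window and not a bound site.

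Among hepatocyte-marker cells Fgb was at 3801 CPM (control), 2935 (day 4) and 3710 (day 21). Fgg followed with 2390, 1802 and 2365 CPM, and Fga with 2084, 1317 and 1712 CPM. In these sums all the chains were therefore lower at day 4 than in either other library. At day 4 the log2 ratios to the control were -0.37 for Fgb (95% interval -0.45 to -0.29), -0.41 for Fgg (-0.51 to -0.30) and -0.66 for Fga (-0.78 to -0.55). At day 21 they were -0.03 for Fgb (-0.13 to 0.06), -0.01 for Fgg (-0.14 to 0.11) and -0.28 for Fga (-0.42 to -0.15). The intervals of Fgb and Fgg held 0 and that of Fga did not. Fgb was found in 86.7, 85.1 and 73.0% of the cells of the group, whose median depth was 1577, 1258 and 989 UMIs. In cells thinned to 1000 UMIs those shares were 77.2, 78.7 and 72.2%. Thinned in this way, the log2 ratio of Fgg at day 4 was 0.12 and that of Fga at day 21 was 0.24, both of the opposite sign. By the mean over cells that of Fgb at day 4 was -0.08. The day 4 ratio of Fga was -0.33 or lower in every alternative setting.

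The hepatocyte content of the group differed between libraries. Together, 14 abundant hepatocyte genes such as Alb and Apoa1 took 152172, 136079 and 103207 CPM of it, while a sum of endothelial reference genes was at 1704, 2193 and 3212 CPM. Neutrophil markers summed to 14.3, 131 and 5952 CPM (3, 9 and 10 of 11 detected, with S100a9 and Csf3r at 0 in the control) and erythroid markers to 75.0, 1497 and 6108 CPM (6 of 8 detected in each). Their part in the ratios of the group was not tested. Hnf4a, the gene named in the aim of the study, was at 186, 206 and 168 CPM. Genes were therefore also expressed per UMI of the 14 reference genes. On that scale fibrinogen was below the control at day 4 (log2 ratio -0.50 for Fga, -0.21 for Fgb, -0.25 for Fgg) and above it at day 21 (0.28, 0.53 and 0.55). The day 21 direction of fibrinogen thus turns with the denominator.

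Over all 19 hepatocyte genes at day 4 on the CPM scale, 8 had an interval below 0, 0 above and 11 held 0, with a median log2 ratio of -0.18, beside 0.06 over the 4893 genes compared in the group. Per reference UMI 3 intervals lay above 0 (F12, Serpinc1 and Cpb2), 6 below and 10 held 0, with a median of -0.02. On the CPM scale 0 of 19 were called higher against a background of 4.84% and 0 lower against 3.78%. At day 21, 11 intervals lay below 0, 0 above and 8 held 0, with a median of -0.47 beside 0.18 over all 4087 genes. Called lower by at least 2-fold were F5 and Proc, 2 of 19, where 7.59% of all genes were called lower, and 0 of 19 were called higher, where 10.4% of all genes were. The count of lower calls is near that background. Per reference UMI, the day 21 median was 0.09, with 6 intervals above 0 (Fga, Fgb, Fgg, Serpinc1, Serpinf2 and Cpb2), 2 below (F5 and Proc) and 11 that held 0. The share of all genes of the group with intervals away from 0 was not counted, so the interval counts have no background.

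F5 and Proc lay on opposite arms of the cascade. F5, coding for factor V, the cofactor with which factor Xa makes thrombin, was at 273, 150 and 106 CPM (153, 147 and 42 UMIs), below the control at both times. Its log2 ratio was -0.87 (-1.20 to -0.53) at day 4 and -1.36 (-1.90 to -0.87) at day 21, a 2.57-fold lower level. Proc, coding for protein C, which once activated degrades factors Va and VIIIa, was at 377, 272 and 163 CPM (211, 267 and 65 UMIs), with log2 ratios of -0.47 (-0.73 to -0.20) and -1.20 (-1.63 to -0.80). Both genes descended in the order control, day 4, day 21, with separate intervals between control and day 21. Per reference UMI the day 21 values were -0.80 for F5 and -0.64 for Proc, in the same direction and under 2-fold. With each cell classed by its own markers the CPM ratios were -0.89 (F5) and -0.81 (Proc), and at a mitochondrial limit of 50% that of Proc was -0.68, all under 2-fold. F5 was in 26.5, 17.2 and 11.2% of the cells of the group, and Proc in 43.4, 29.8 and 18.4%.

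Of the other procoagulant factors, F2, the gene of prothrombin, was at 947, 833 and 573 CPM with a day 21 log2 ratio of -0.72 (-0.95 to -0.50). F13b, the carrier subunit of factor XIII, was at 105, 88.7 and 52.8 CPM, just under the 2-fold limit at day 21 (-0.98, interval -1.79 to -0.26). F10, the gene of factor X, was at 316, 332 and 219 CPM and had a day 21 ratio of -0.53 (-0.92 to -0.15). F7 was at 94.7, 105 and 77.9 CPM and F9 at 73.2, 67.3 and 50.3 CPM, with intervals that held 0 at both times. F7 (chr8:13026034-13035809) and F10 (chr8:13037308-13056676) are neighbours on the plus strand with separate annotated bodies. Per reference UMI the day 21 intervals of F2, F7, F9, F10 and F13b all held 0.

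Contact factors split in level between the libraries. Kng1, the kininogen gene, was at 1306 CPM in the control and at 748 and 789 CPM in the tumour libraries, with log2 ratios of -0.80 (-0.95 to -0.65) and -0.73 (-0.92 to -0.53). Its near copy Kng2 may share reads with it, so the value of Kng1 alone is uncertain. Klkb1, coding for plasma prekallikrein, was at 148, 163 and 98.0 CPM, with a day 21 interval just below 0 (-1.18 to -0.03). F12 (64.3, 92.8 and 42.7 CPM) and F11 (28.6, 35.7 and 32.7 CPM) rested on 13 to 91 UMIs in a library, and their intervals held 0 at both times on the CPM scale. On the CPM scale Kng1 was the contact gene whose tumour libraries both lay on the same side of the control with intervals away from 0. In cells thinned to 1000 UMIs its log2 ratios were closer to 0, at -0.06 (day 4) and -0.19 (day 21). Per reference UMI its log2 ratio was -0.64 (-0.79 to -0.49) at day 4 and -0.16 (-0.36 to 0.03) at day 21, and that of F12 was 0.68 (0.12 to 1.29) at day 4.

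None of the other inhibitors and fibrinolytic proteins of the hepatocyte set (Serpinc1, Serpind1, Plg, Serpinf2 and Cpb2) reached 2-fold. Serpinc1, coding for antithrombin, was at 981, 1010 and 794 CPM (day 21 log2 ratio -0.30, interval -0.51 to -0.10), and Serpind1, heparin cofactor, at 216, 220 and 156 CPM (-0.47, -0.94 to -0.02). Plg, the plasminogen gene, was at 897, 764 and 653 CPM, with ratios of -0.23 (-0.40 to -0.07) and -0.46 (-0.68 to -0.24). Serpinf2, coding for the plasmin inhibitor alpha-2-antiplasmin, was at 382, 335 and 367 CPM, and Cpb2, a carboxypeptidase that slows clot removal, at 234, 271 and 244 CPM. The intervals of Serpinf2 and Cpb2 held 0 at both times on the CPM scale. Per reference UMI, both were above the control at day 21 (0.50 and 0.62), as was Serpinc1 (0.26).

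**Figure D2:**
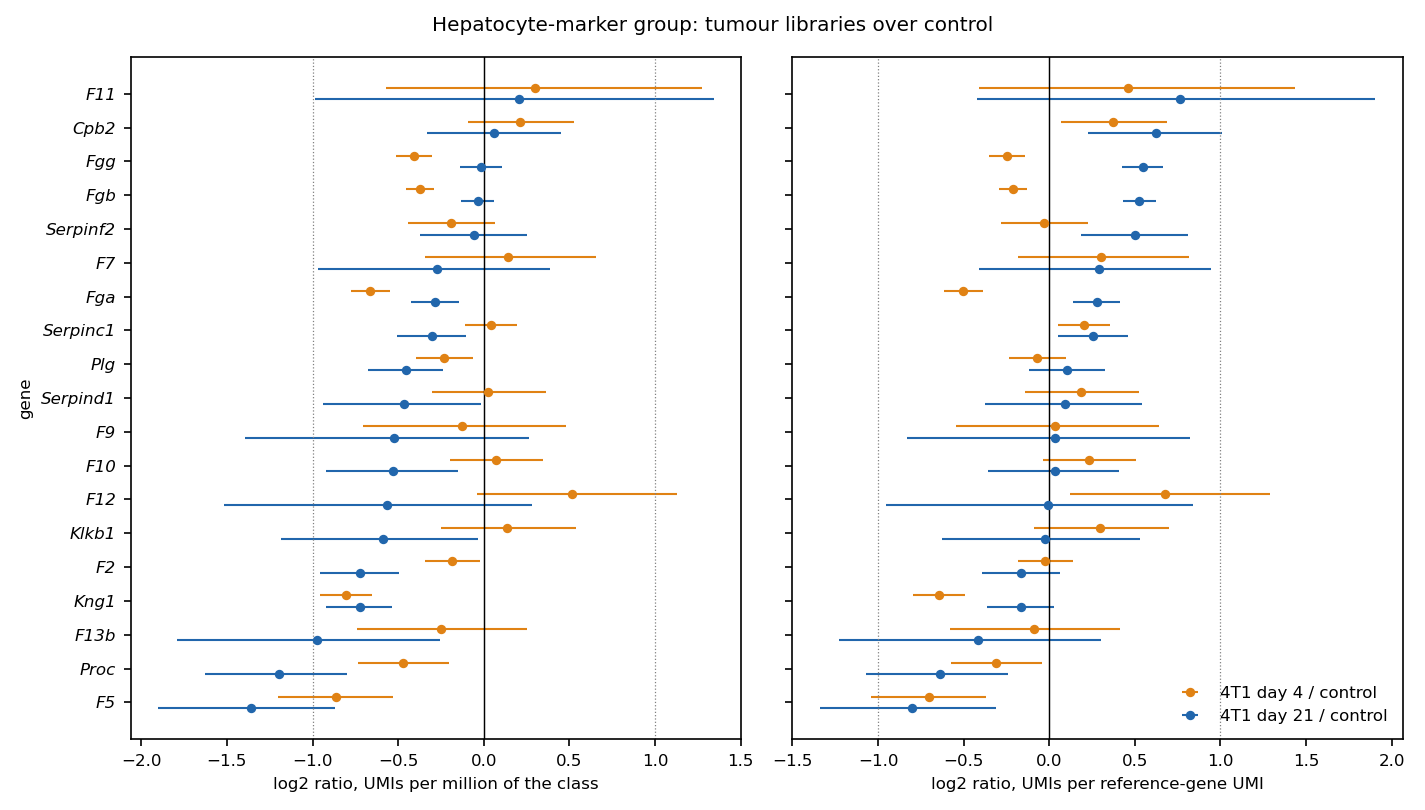
Log2 ratio of each tumour library to the control (x axis) for the 19 hepatocyte genes (y axis) in the hepatocyte-marker group, in CPM of the group (left) and per UMI of 14 hepatocyte reference genes (right). Points are ratios, bars 95% counting intervals, dotted lines 2-fold. F5 (-1.36) and Proc (-1.20) are the day 21 points beyond 2-fold on the left, and the fibrinogen points at day 21 move from near 0 on the left to between 0.28 and 0.55 on the right.

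The endothelial set was read in 1369, 1500 and 1051 Endothelial-like cells. Different clusters held most of the class: cluster 0 had 1016 and 1181 cells in the control and at day 4 and 33 at day 21, and cluster 6 had 13, 13 and 974. No cluster of the class held 50 cells in both the control and the day 21 library, so the day 21 ratios set cluster 0 mainly against cluster 6. Median depth of the class was 5697, 5206 and 2586 UMIs. Neutrophil markers in it summed to 15.7, 13.9 and 2566 CPM, and 9, 10 and 11 of the 11 were detected, without Ly6g and Acod1 in the control and without Acod1 at day 4. The part of these differences in the day 21 ratios was not tested.

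At day 4, 0 of the 9 genes compared in Endothelial-like cells were called in either direction, beside 0.98% of genes called higher and 1.14% called lower. At day 21, 2 of 9 were higher, Vwf and Thbd, beside 5.58% of all genes, and 0 were lower, beside 3.88%. The median log2 ratio of the 9 genes at day 21 was 0.40, beside 0.08 over all 9115 genes compared.

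Vwf (chr6:125546774-125686679, plus strand) encodes von Willebrand factor, which carries factor VIII and tethers platelets to the vessel wall. Its level in Endothelial-like cells was 31.6 CPM (27.8 to 35.8) in the control, 16.5 (13.8 to 19.6) at day 4 and 137 (123 to 151) at day 21, from 250, 130 and 374 UMIs. The intervals were separate, with day 4 lowest and day 21 highest. The log2 ratio was -0.93 (-1.25 to -0.62) at day 4 and 2.11 (1.88 to 2.35) at day 21, a 4.31-fold higher level. Few cells carried the gene: 42 of 1369 (3.07%), 30 of 1500 (2.00%) and 57 of 1051 (5.42%), with 5.95, 4.33 and 6.56 UMIs in such a cell. In cells thinned to 1000 UMIs the shares were 1.84, 1.27 and 3.73%.

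In the control and at day 4 most Vwf UMIs came from small clusters. Cluster 23, which had periportal and large-vessel genes, held 158 of the control UMIs of Vwf in 103 cells (277 CPM, 30.1% of its cells) and 81 at day 4 in 70 cells (273 CPM). At day 21 it held 201 UMIs in 21 cells, of which 81.0% were positive. Cluster 18, high in pericentral genes, held 87 control UMIs in 6 positive cells, 60 of them in 1 cell, and 63 UMIs in 7 cells at day 21. Cluster 0 had 4 and 1 UMIs in the control and at day 4, whereas the day 21 cluster 6 had 110 UMIs (43.7 CPM) in 34 of the 57 positive cells of the class, 3.49% of its own cells. Without cluster 23 Vwf was at 12.5 CPM in the control and 64.8 at day 21, a log2 ratio of 2.36, so the higher level was not confined to that cluster. With finer clusters (resolution 2) the day 21 ratio was -0.99. The class then held 156, 146 and 1001 cells, because large control clusters with endothelial markers stayed unnamed. With each cell classed by its own markers the ratio in Endothelial-like cells was 2.42, but Vwf was not among the called genes of that class, and in Stem/progenitor-like cells so classed it was called lower (-1.42). Platelet markers, which go with another source of Vwf, summed to 15.6, 19.5 and 35.0 CPM in the class, with 4, 6 and 4 of 8 detected. Gp1bb and Tubb1 were at 0 in all libraries and Gp6 and Treml1 in the control and at day 21, and Ppbp had 3, 1 and 1 UMIs. Gp1ba and Itgb3, platelet receptor genes outside that list, were called higher in the class at day 21, Gp1ba at 1.77 and 4.02 CPM (14 and 11 UMIs; 1.19, -0.10 to 2.43) and Itgb3 at 9.74 and 39.1 CPM (2.00, 1.57 to 2.45). They were 2 of the 13 further haemostasis genes compared there, beside 5.58% of all genes called higher. Their part in the Vwf values was not tested.

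Thbd (chr2:148404466-148408188, minus strand), an intronless gene, encodes thrombomodulin, the endothelial receptor with which thrombin activates protein C. In Endothelial-like cells it was at 114 CPM (107 to 122) in the control, 95.4 (88.7 to 103) at day 4 and 257 (238 to 277) at day 21. The control and day 4 were close, and day 21 was apart from both, with log2 ratios of -0.26 (-0.40 to -0.12) and 1.17 (1.02 to 1.31), 2.25-fold above the control. The share of cells with a UMI was 36.3, 28.1 and 34.5% at the depths given above, which were lower at day 21. Thinned to 1000 UMIs it was 9.93, 9.25 and 18%. Without cluster 23 the levels were 113 and 248 CPM, and at resolution 2 the ratio was 0.36.

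Level of Thbd also differed between endothelial clusters within a library. In the control it was 73.4 CPM in cluster 0, 270 in the pericentral cluster 18 and 128 in the periportal cluster 23, and at day 4 it was 55.5, 259 and 222 CPM. The pericentral genes that describe cluster 18 summed to 2159 CPM there and to 384 CPM in cluster 0. Cluster 6 at day 21, with Thbd at 253 CPM, had pericentral and periportal sums of 839 and 1190 CPM, between those of the control clusters. How far zone sets the day 21 level was not tested. Cluster 14 (175, 240 and 117 cells) was unnamed and carried 15 endothelial and 9 stellate markers, so it is not a purely endothelial reading. Thbd was there at 61.9, 57.4 and 158 CPM, a day 21 log2 ratio of 1.36 (0.77 to 1.94), called higher where 7.58% of genes were. In cluster 1 it was at 29.3, 30.4 and 35.2 CPM, the last from 5 UMIs.

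F8 (chrX:75172715-75382615), the factor VIII gene, is the endothelial gene of the set that the most cells carried. In Endothelial-like cells it was at 888, 1030 and 693 CPM, found in 95.3, 96.2 and 76.8% of them and, thinned, in 55.4, 62.7 and 50.8%. Its log2 ratios were 0.22 (0.17 to 0.26) and -0.36 (-0.43 to -0.28), so day 4 was above and day 21 below the control by less than 2-fold. T-like cells, which should lack it, had a UMI of F8 in 1.92, 1.53 and 0.669% of cells. F2r, coding for the thrombin receptor PAR1, took the reverse course: 271, 196 and 400 CPM, with log2 ratios of -0.47 (-0.56 to -0.37) and 0.56 (0.45 to 0.66). F8 and F2r thus lay on opposite sides of the control at each time.

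The remaining endothelial genes stayed within 2-fold. Pros1, coding for protein S, the cofactor of protein C, was at 344, 355 and 403 CPM, and Tfpi, the inhibitor of the tissue factor pathway, at 273, 285 and 244 CPM. Their day 21 log2 ratios were 0.23 (0.13 to 0.33) and -0.16 (-0.29 to -0.04). The sign of Tfpi turned in 3 of the alternative settings (0.06 at a mitochondrial limit of 10%, 0.07 with the 32 genes eligible for clustering, 0.59 at resolution 2), and in cluster 14 its ratio was 0.53 (0.12 to 0.92). Procr, the endothelial protein C receptor, was at 16.7, 17.7 and 21.9 CPM with intervals that held 0 at both times. The plasminogen activators were rare in the class: Plat, coding for tissue-type activator, had 21, 14 and 10 UMIs and Plau, urokinase, 49, 63 and 18. Within the class Plat was at 21.0 CPM in cluster 23 in the control and 33.7 at day 4, and at 0.520 and 0.490 CPM in cluster 0. Of the thrombomodulin, protein C and protein S system, Thbd was called higher in this class, and Procr and Pros1 were not.

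**Figure D3:**
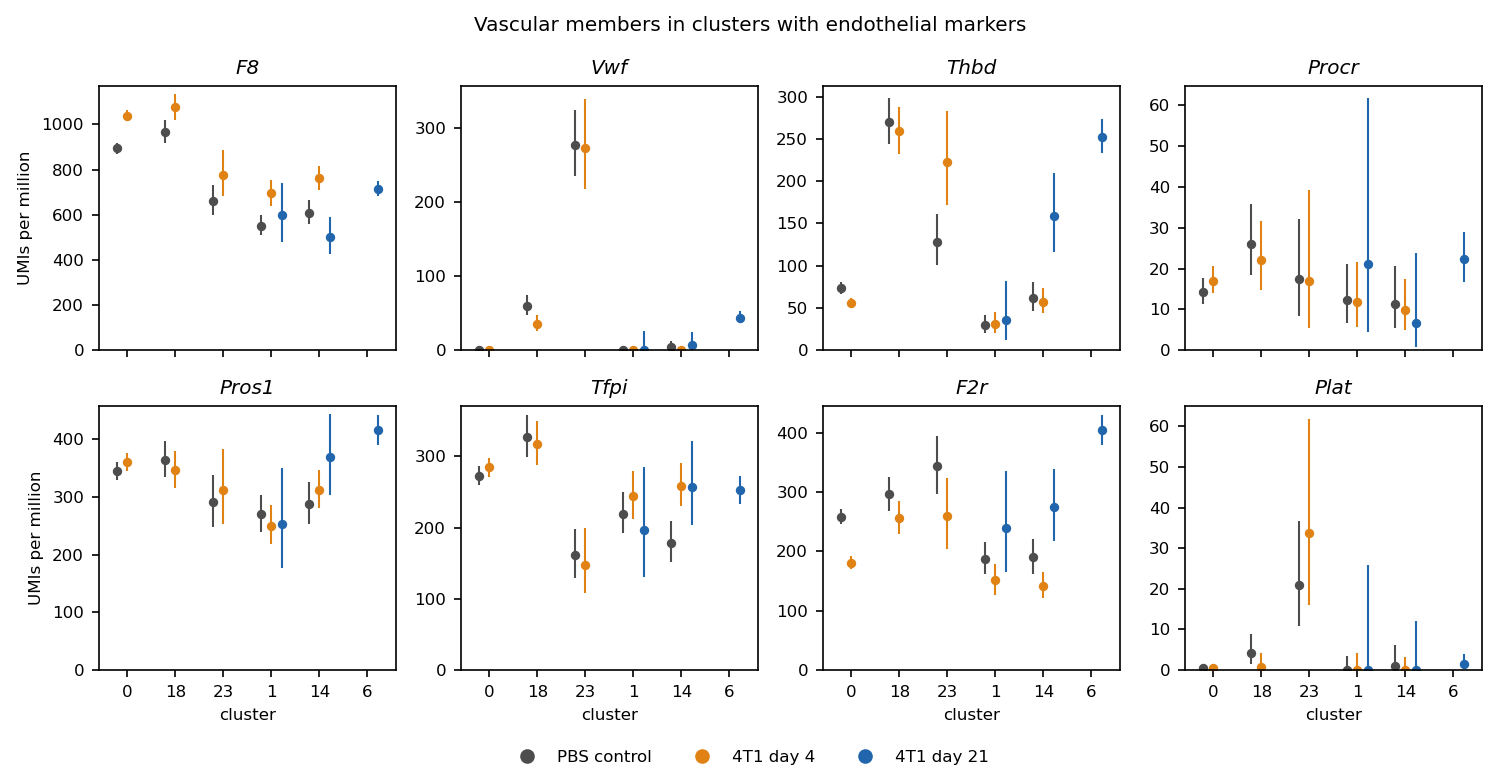
Level in CPM (y axis) of 8 vascular genes in clusters that carry endothelial markers (x axis, cluster number), coloured by library. Only clusters with 50 or more cells in a library are drawn, and bars are 95% Poisson intervals. Vwf is high in cluster 23 (277 and 273 CPM), Thbd in cluster 18 (270 and 259 CPM) and in the day 21 cluster 6 (253 CPM), and cluster 6 has no control or day 4 point.

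Stellate-like cells (390, 480 and 237 cells, mostly cluster 11 in the control and at day 4 and cluster 21 at day 21, with 369, 450 and 4 against 21, 30 and 233 cells) gave 9 comparable genes. None was called at day 4, beside 1.2% of genes higher and 1.51% lower. At day 21, 1 of 9 was higher, Procr, beside 5.52%, and 0 were lower, beside 3.92%, with a median of 0.59 over the 9 and 0.07 over all genes. Neutrophil markers in the class summed to 514, 566 and 5369 CPM, with 7, 8 and 11 of 11 detected (Retnlg, Mmp9, Ly6g and Acod1 at 0 in the control, Cxcr2, Mmp9 and Ly6g at day 4), and their part was not tested. Procr was at 8.60, 9.80 and 21.1 CPM (36, 42 and 32 UMIs), a day 21 log2 ratio of 1.30 (0.56 to 2.02). That of Procr was under 2-fold in 5 of the alternative settings, between 0.63 and 0.95. Pros1 was at 231, 254 and 327 CPM (0.50, 0.34 to 0.66) and Thbd at 57.6, 41.8 and 86.3 CPM (0.59, 0.27 to 0.90). Endothelial reference genes were at 8471 CPM in control Stellate-like cells against 24407 CPM in Endothelial-like cells, and the ratio of a gene to them was 1.93 times the endothelial value for Pros1, 1.45 for Thbd and 0.84 for F8. Per endothelial reference UMI, F8 in Stellate-like cells (260, 244 and 235 CPM) was thus below its value in Endothelial-like cells. The ratios 1.93, 1.45 and 0.84 are those of the control. At day 21 these reference genes were at 9897 CPM in Stellate-like and 25312 CPM in Endothelial-like cells, beside Thbd at 86.3 and 257 CPM. The part of endothelial RNA in the Stellate-like Thbd level was not tested.

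F3 and Plat had Stellate-like cells as their highest class in the control and at day 4. F3, coding for tissue factor, which starts clotting when blood leaves a vessel, had 26, 45 and 44 UMIs in the whole libraries. In Stellate-like cells it was at 3.11, 4.20 and 5.27 CPM, from 13, 18 and 8 UMIs. Plat was there at 5.02, 3.97 and 8.57 CPM from 21, 17 and 13 UMIs. The intervals of both against the control held 0 at both times, as did those of Plau (5.02, 4.67 and 9.89 CPM), F8 and Tfpi. F2r in Stellate-like cells was at 189, 160 and 205 CPM, with an interval below 0 at day 4 (-0.23, -0.38 to -0.08) and one that held 0 at day 21.

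Kupffer-like cells (471, 923 and 669 cells) had Thbd lower and Procr and Plau higher at day 21. At day 4, 0 of 3 genes were called, beside 1.47% of genes higher and 1.56% lower. At day 21, 2 of 4 were higher, beside 5.1%, and 1 of 4 lower, beside 4.02%. Thbd was at 43.6, 24.0 and 12.9 CPM (157, 165 and 20 UMIs), with log2 ratios of -0.86 (-1.18 to -0.54) and -1.73 (-2.51 to -1.09), a 3.32-fold lower level at day 21, when the gene was higher in Endothelial-like cells. At day 4 it was below the control in both classes. Plau was at 5.55, 9.32 and 25.7 CPM (20, 64 and 40 UMIs; day 21 log2 ratio 2.19, 1.40 to 3.06) and Procr at 5.0, 5.97 and 18 CPM (18, 41 and 28 UMIs; 1.83, 0.94 to 2.79). Klkb1 stood at 18.3, 15.6 and 33.4 CPM (0.87, 0.31 to 1.41). It entered the comparison through the day 21 library alone, where its level in the hepatocyte-marker group was 98.0 CPM. In the control and at day 4 it was below 0.25 of its level in that group (148 and 163 CPM). Against the hepatocyte reference genes Klkb1 was 3.18, 2.66 and 12.8 times as frequent as in the hepatocyte-marker group.

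Different clusters made up the Kupffer-like class: cluster 8 had 300, 599 and 38 cells and cluster 4 had 170, 321 and 625. In cluster 4 alone Thbd went from 9 UMIs in the control to 20 at day 21 (19.8 and 14.8 CPM), a log2 ratio of -0.46 (-1.62 to 0.90) that no longer counted as lower. Plau had 4 and 35 UMIs there (1.41, 0.07 to 3.51), and Procr 0 UMIs in 170 control cells and 25 in 625 day 21 cells. Within cluster 8 at day 4 Thbd had a ratio of -0.85 (-1.18 to -0.51), like the whole class. Neutrophil markers in Kupffer-like cells summed to 1053, 267 and 6340 CPM, with 8, 9 and 11 of 11 detected (Retnlg, Mmp9 and Ly6g at 0 in the control, Il1r2 and Ly6g at day 4), and their part in these values was not tested.

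**Figure D4:**
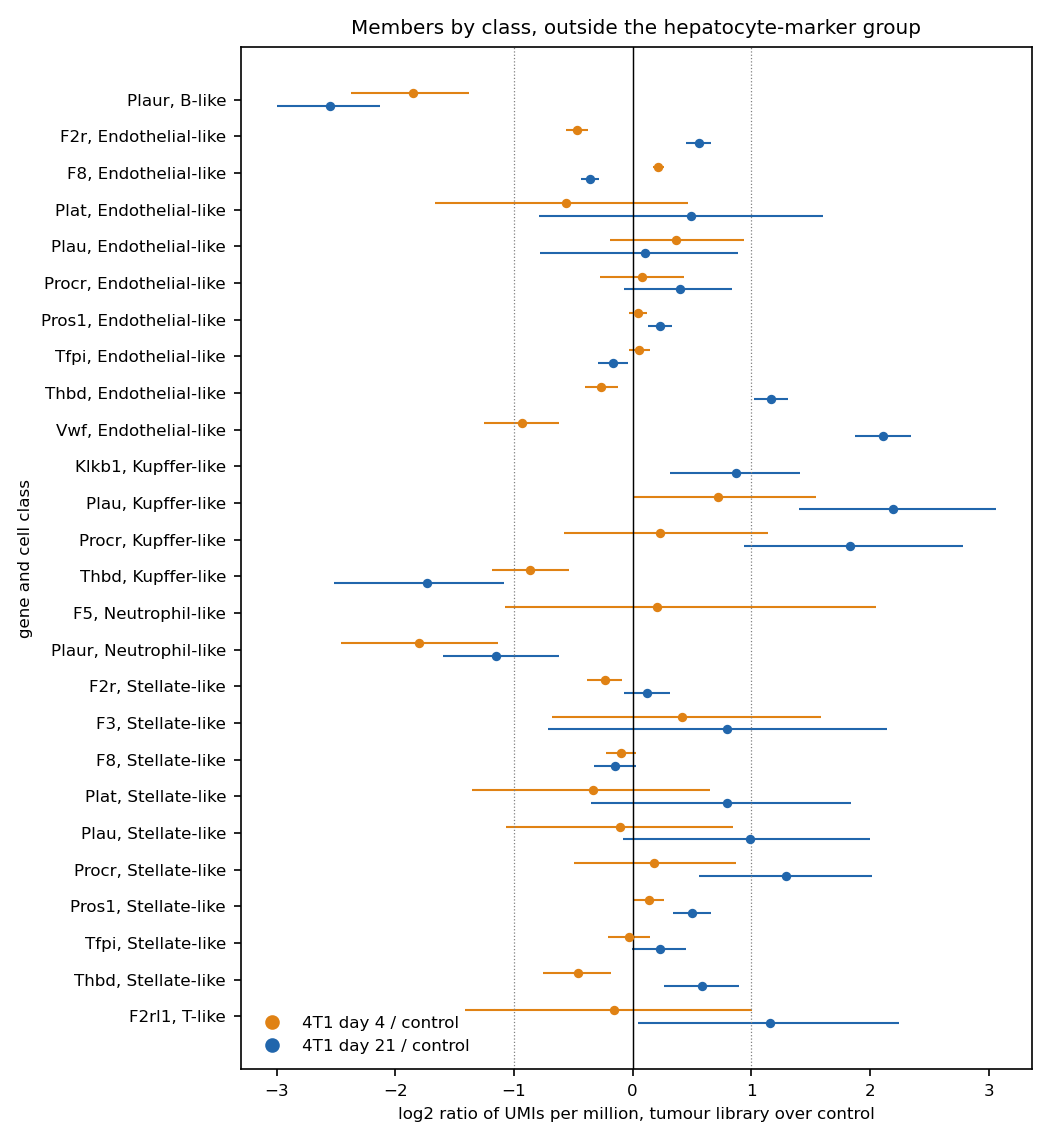
Log2 ratio to the control (x axis) for genes compared in classes other than the hepatocyte-marker group (y axis, gene and class), at day 4 (orange) and day 21 (blue), with 95% counting intervals and dotted lines at 2-fold. Vwf in Endothelial-like cells (2.11), Plau (2.19) and Procr (1.83) in Kupffer-like cells lie to the right, and Plaur in B-like cells (-2.55) and Thbd in Kupffer-like cells (-1.73) to the left.

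F13a1 (chr13:36867178-37050244, minus strand) encodes the catalytic A subunit of factor XIII, which cross-links fibrin. It had 37, 46 and 6250 UMIs in the control, day 4 and day 21 libraries, or 1.36, 1.32 and 120 CPM of the library, a day 21 log2 ratio of 6.45 (6.0 to 6.97). Its B subunit gene F13b, of the hepatocyte set, went from 171 and 233 UMIs to 45 (-2.85, -3.37 to -2.38). The subunit genes of factor XIII therefore lay on opposite sides of the control at day 21.

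At day 21, 60.4% of the F13a1 UMIs in kept cells came from cluster 16 (488 cells, 624 CPM, 96.7% of cells) and 28.1% from Monocyte/macrophage-like cells (591 cells, 584 CPM, 71.4% of cells). Cluster 16 was unnamed, with 6 monocyte and 6 neutrophil precursor markers, and had no cell in the control or at day 4. In the control the 26 Monocyte/macrophage-like cells held 33 of the 37 kept UMIs (221 CPM, 46.2% of cells), and at day 4 the 22 such cells held 36 of 46 (245 CPM, 50% of cells). The gene was thus present in the few monocytes of the control and of day 4. In whole libraries, fewer cells of a type and less RNA per cell cannot be told apart. Endothelial-like cells, which served as the reading of stray RNA, had 0 UMIs in 1369 control cells, which allows up to 0.379 CPM, and 5 at day 21 (1.83 CPM).

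F10 and F5 were also read in blood cells. F10 had 579, 860 and 1880 UMIs in the libraries (day 21 log2 ratio 0.77), opposite to its lower level in the hepatocyte-marker group. At day 21 it was at 210 CPM (193 to 228) in Monocyte/macrophage-like cells and 111 CPM (102 to 120) in cluster 16, which held 35.1 and 37.2% of its kept UMIs. The main hepatocyte-marker cluster held 5.18% of them at day 21 and 51.5% in the control. F5 had 365, 434 and 1010 UMIs (0.53), and at day 21 was at 47.4 CPM in Monocyte/macrophage-like cells, 31.8 in cluster 10, an unnamed cluster with neutrophil granule genes, and 31.7 in Neutrophil-like cells. Neutrophil-like cells of the control and day 4 had 5 and 27 UMIs of F5 in 54 and 189 cells. Endothelial-like cells had F5 at 2.40, 3.31 and 1.83 CPM and F10 at 4.68, 2.55 and 3.29 CPM, below the blood cell levels.

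Plaur (chr7:24462484-24475968, plus strand) encodes the urokinase receptor, which holds urokinase at the surface of leukocytes. It had 565, 357 and 6276 UMIs in the libraries, 20.8, 10.2 and 121 CPM (day 21 log2 ratio 2.54, 2.42 to 2.67). Within the classes where it was compared, Neutrophil-like and B-like cells, the direction was the opposite. In Endothelial-like cells, outside the comparison because the level was low, it was at 5.95 and 21.5 CPM in the control and at day 21 (47 and 59 UMIs). In Neutrophil-like cells (54, 189 and 2486 cells, mostly cluster 3 in the control and at day 4 and clusters 2 and 3 at day 21) it was at 490 CPM (345 to 675), 141 (103 to 188) and 224 (213 to 236), from 37, 46 and 1474 UMIs. It was called lower at day 4 (-1.80, -2.45 to -1.13), 1 of 2 genes where 9.6% of genes were, and at day 21 (-1.15, -1.60 to -0.62), where 63.5% of all genes were called lower and the median gene had a ratio of -1.41. The day 21 value therefore says nothing particular about Plaur: scaled by the median ratio over genes it was -0.09. In B-like cells Plaur was at 185, 50.9 and 31.5 CPM (217, 42 and 58 UMIs), called lower at day 4 (-1.85, background 2.52%) and at day 21 (-2.55, background 4.05%). Cluster 7 alone, without the day 21 cells that carry surrogate light chain genes, gave 74.7 CPM and a ratio of -1.30 at day 21.

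At day 21 Plaur was read mainly in the myeloid cells that were few or not found in the control. Cluster 10 (2, 4 and 843 cells) had it at 310 CPM, in 79.5% of its cells, and held 29.7% of its kept UMIs. Neutrophil-like cluster 2 held 22.6% (242 CPM) and Neutrophil precursor-like cluster 15 held 17.8% (187 CPM, 73.0% of cells). Monocyte/macrophage-like cells held 7.82% (161 CPM) and cluster 27 held 1.19% (240 CPM). Plasmacytoid dendritic-like cells, not scarce in the control (42 cells, 90.8 CPM), held 0.99% at day 21 (89 cells, 175 CPM). In T-like cells the share with a UMI was 7.95, 1.15 and 1.0%. Thbd and Pros1 were also present in the day 21 monocytes, at 35.4 and 46.7 CPM, and in cluster 16, at 26.3 and 28.4 CPM. F2rl1, coding for the protease-activated receptor PAR2, was the rarest gene: 24, 17 and 25 UMIs in the libraries. It was at 12.3, 10.9 and 27.4 CPM in T-like cells (17, 11 and 15 UMIs; day 21 log2 ratio 1.16, 0.05 to 2.24), called higher beside 7.89% of genes, and at 0.97 and 0.98, under 2-fold, in 2 of the alternative settings. F2r in cluster 5, which had T and NK markers, was at 101, 108 and 192 CPM (day 21 log2 ratio 0.92, 0.56 to 1.29), and in Basophil/mast-like cells of day 21 at 155 CPM.

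**Figure D5:**
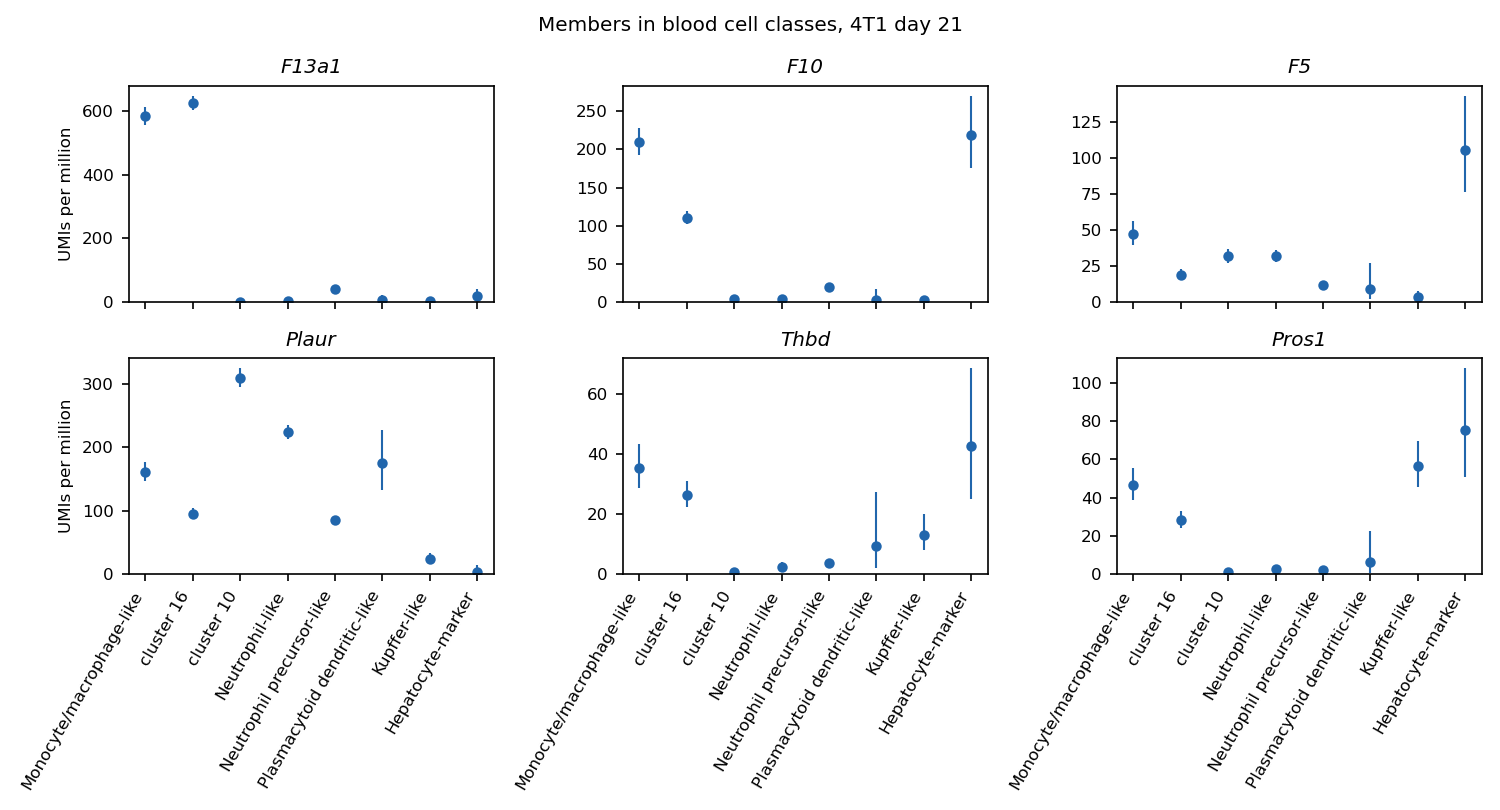
Level in CPM (y axis, each panel with its own scale from 0) of 6 genes in blood cell classes of the day 21 library (x axis), beside Kupffer-like cells and the hepatocyte-marker group. Points are class levels, bars 95% Poisson intervals. F13a1 is high in Monocyte/macrophage-like cells and cluster 16 (584 and 624 CPM) and low elsewhere, F10 in Monocyte/macrophage-like cells (210 CPM) meets the hepatocyte-marker level (219 CPM), and Plaur is highest in cluster 10 (310 CPM).

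Few of the genes could be compared in the other classes, and most of those were not called. In B-like cells, where Plaur was the gene compared, 0 of 1 was higher, beside 2.91% of genes at day 4 and 23.5% at day 21. In Neutrophil-like cells 0 of 2 genes were higher at day 4 (background 6.23%) and 0 of 1 at day 21 (5.69%). In T-like cells 0 of 1 was called at day 4, beside 3.08% of genes higher and 2.4% lower, and 0 of 1 was lower at day 21, beside 3.3%. Cluster 1 had 0 of 7 genes called at day 4 (3.33% of genes higher, 1.13% lower) and 0 of 4 at day 21 (12.5 and 6.41%). Cluster 14 had 0 of 6 at day 4 (2.4 and 1.76%) and, beside Thbd, none of 5 at day 21, with 0 lower where 4.63% of genes were. F2r in cluster 5 was called at neither time (3.21 and 1.61% of genes at day 4, 5.58 and 3.36% at day 21).

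Over the 7 named classes and groups together, 0 of 44 pairs were called higher at day 4 (background 2.51%) and 2, or 4.55%, lower (background 2.45%), both of them Plaur. At day 21, 6 of 44 pairs, 13.6%, were higher (background 9.07%) and 5, 11.4%, lower (background 8.97%). The day 21 background pools unlike classes: 63.5% of genes in Neutrophil-like cells were called lower and 23.5% in B-like cells higher. Each of these classes gave 1 of the 44 pairs, and the hepatocyte-marker group gave 19. The shares are therefore not read as a trait of the genes. The day 4 and day 21 ratios share the control library.

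In whole libraries the hepatocyte and endothelial sets were lower at day 21. Of the 32 genes, 26 had an interval below 0, 5 above (F13a1, Plaur, F10, F5 and Plau) and 1, F3, held 0. The share of all genes with such intervals was not counted, here or at day 4, so these counts have no background. The hepatocyte genes had a median log2 ratio of -2.24 and the endothelial genes one of -1.66. Proc was lowest (-2.95). As a share of all UMIs of the 32 genes, the 19 hepatocyte genes made up 49.4, 54.9 and 33.2%, fibrinogen alone 27.1, 28.2 and 16%, and the 7 endothelial genes 48.9, 44.0 and 32.2%. At day 4, 7 intervals were above 0, 10 below and 15 held 0, between -1.22 (Vwf) and 0.47 (F7). The makeup of the library moved with these values: Endothelial-like cells were 29.2, 27.7 and 10.6% of kept cells, and Neutrophil-like cells 1.15, 3.49 and 25%.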

How the data were processed

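The deposited files are raw UMI counts per gene (31053 genes) and called barcode, 1 matrix a library. Per the file headers the authors used Cell Ranger 3.1.0, and the submitters' processing notes name mm10. No source used here gives the strand setting. The 32 genes, the lists and the settings were chosen with earlier results of these data known. Barcodes with under 200 genes or over 20% mitochondrial UMIs were removed, and Scrublet (expected rate 0.8% per 1000 barcodes, automatic threshold) removed 40, 99 and 732 doublets. Clustering used 2000 variable genes without the 32 genes and 38 related ones, 30 principal components, 15 neighbours and Leiden resolution 1, without integration. Clusters were named from 21 marker lists. Clusters 17 and 30 form the hepatocyte-marker group: cluster 17 carried 12 hepatocyte markers but, being shallow, stayed unnamed, where the plan spoke of hepatocyte-like cells. Counts were summed by class and library. For log2 ratios, 0.5 was added to each sum. Their 95% intervals are exact conditional binomial ones, those of levels exact Poisson ones and those of shares of cells exact binomial ones. These leave out variation between mice and cells, and PCR error. A gene was named with values where it had 20 or more UMIs over both libraries and at least 0.25 of its highest class level, in classes of 50 or more cells, and called at 2-fold. The 0.25 limit was applied in the library where the gene was higher in the class. The calculation of the ratios was tested on simulated data. Gene positions are from GENCODE on GRCm38. Tools were Scanpy 1.11.5 (with its Scrublet, and scikit-learn 1.9.0 beneath it), leidenalg 0.10.2 and igraph 0.11.9 for clustering, pandas 2.3.3 for tables, SciPy 1.17.1 with NumPy 2.4.6 for intervals, and matplotlib 3.10.9 for plots, under Python 3.11.15. The 15 alternatives cover filters, clustering, scaling, thinning, thresholds and the guard against stray RNA. Values for single clusters and without clusters 20 or 23 were added after seeing the data. A result on 1 of the related genes is not reported here.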

Additional observations from a re-analysis of the deposited data

Results flagged for a closer look

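Thbd lay on opposite sides of the control in 2 classes at day 21, though below it in both at day 4. Its day 21 log2 ratio was 1.17 in Endothelial-like cells and -1.73 in Kupffer-like cells, and the difference between these ratios was not tested. In cluster 4, the Kupffer-like cluster with 50 or more cells in both libraries, the ratio was -0.46 (-1.62 to 0.90). The barcodes over the mitochondrial limit are not used in the main comparisons, though the alternative limit of 50% takes in some of them. Of the 32 genes, Thbd and Plaur were at least 2-fold higher there at day 21 with 20 or more UMIs over both libraries. F2r, under 2-fold, and Vwf and F13a1, with fewer UMIs, also had intervals above 0 there, while those of most hepatocyte genes lay below 0. The share of all genes higher in these barcodes was not counted. Thbd had 25 UMIs there in the control and 30 at day 21 (10.6 and 23.7 CPM, log2 ratio 1.15, interval 0.34 to 1.98), and Plaur 10 and 32 UMIs (log2 ratio 2.52, interval 1.51 to 3.76).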

How the results depend on the processing

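No paired analysis was possible because each group had 1 library, and for the same reason no replicate could be left out. Of 591 alternative values of the 58 gene and class ratios at day 4, 515 stayed within the counting interval, 530 kept the sign and 0 called values reversed. Of 534 at day 21 (54 ratios), 448 stayed within it and 486 kept the sign. Of the called values 1 reversed: Vwf in Endothelial-like cells was -0.99 at resolution 2, where large control endothelial clusters stayed unnamed. The count of genes highest in the hepatocyte-marker group (19) was 0 at a mitochondrial limit of 10%, where the control group had 31 cells, under the minimum of 50. It was 15 to 20 in the other settings. Pairs called higher at day 4 (0) became 1 by the mean over cells, 2 without a minimum of UMIs, 3 without the guard against stray RNA and 1 at 1.5-fold. Pairs called lower at day 4 (2) became 4 at the 10% limit, 4 with cells classed by their own markers, 4 without a minimum of UMIs, 6 without the guard and 7 at 1.5-fold. Pairs called higher at day 21 (6) became 3 in thinned cells, 15 without the guard and 11 at 1.5-fold. Pairs called lower at day 21 (5) became 19 at the 10% limit, where the hepatocyte-marker group could not serve the guard, 3 with the 32 genes eligible for clustering, 13 with cells classed by their own markers, 8 by the mean over cells, 3 in thinned cells, 45 without the guard and 9 at 1.5-fold. Apart from the 10% limit and the guard, the cause of these shifts was not tested. Genes with few UMIs in a class have wide intervals: that of F2rl1 in T-like cells at day 21, from 17 and 15 UMIs, ran from 0.05 to 2.24.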

Other observations

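A list of 38 further genes of haemostasis was read in the same classes. At day 4, Klf2 and Klf4, transcription factors that respond to flow and are known to regulate Thbd, were lower in Endothelial-like cells: Klf2 went from 1184 CPM to 357 (log2 ratio -1.73, -1.79 to -1.67) and Klf4 from 200 to 77.6 (-1.36, -1.50 to -1.23). They were 2 of the 12 listed genes compared there, beside 1.14% of all genes called lower. Both were also lower at day 4 in Stellate-like cells (-1.36 and -1.95), and Klf4 in Kupffer-like cells (-1.41). Neither was called in Endothelial-like cells at day 21, when Thbd was higher.

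In Stellate-like cells Thbs1, the gene of the platelet and matrix protein thrombospondin, was at 5.73 CPM in the control, 50.9 at day 4 (log2 ratio 3.12, 2.54 to 3.82) and 35.6 at day 21 (2.62, 1.92 to 3.39). Serping1, coding for C1 inhibitor, was there at 640 CPM in the control and 1348 at day 21 (1.07, 0.99 to 1.16). Of 20 listed genes compared in this class, 1 was called higher at day 4 (1.2% of all genes) and 4 at day 21 (5.52%). Called lower were 2 at day 4 (1.51%) and 1 at day 21 (3.92%). Pf4, a platelet chemokine gene, was at 161 and 27 CPM in Kupffer-like cells in the control and at day 21 (-2.56, -3.06 to -2.12). It was the 1 gene called lower of 10 listed genes compared there, beside 4.02% of all genes. Tfpi2 was at 30.4 and 90.5 CPM in the hepatocyte-marker group (1.55, 0.71 to 2.50). It was the 1 gene called higher of 11 listed genes compared there, beside 10.4% of all genes, a share near that background. Its level per reference UMI was not computed, and the part of the changed makeup of the group was not tested.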
